A study of Mus musculus with 43 samples.

Results

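Tgm1 and Tgm2, the mouse genes for transglutaminase 1 and transglutaminase 2, are 2 of the 46983 genes measured by RNA sequencing in cultured male germ cells with and without Stra8. They were found by gene name, each in 1 row of the expression table, and both were above the filter on low values in every library. They were chosen on values of these same libraries, Tgm1 for a rise under retinoic acid that was seen where Stra8 is intact and Tgm2 as a known retinoic acid target. Their changes under retinoic acid and the difference of those changes between genotypes are therefore given as descriptions, with no test.

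The cells were Stra8-KO and wild-type (WT) mouse spermatogonial cultures, grown out from THY1+ cells of the testis at passage 3 to 12 on feeders of STO, a fibroblast line from mouse. The serum-free medium held GDNF at 20 ng/ml, GFRA1 at 150 ng/ml and FGF2 at 1 ng/ml in every group. KO cultures (KO12, KO20, KO21) and WT cultures (WT17, WT23, WT25) were left untreated at 0 h, or were given all-trans retinoic acid (RA) or its solvent, 0.01% DMSO, for 4, 8 or 24 h, which makes 14 groups of 3 libraries. The RA dose is written as 0.01 M in the labels, which do not describe the Stra8 allele, the age of the mice or whether each culture line came from its own mouse. P-values therefore speak for these lines only. They rest on the spread between libraries within a group, pooled over the groups. The main fit takes libraries as independent, although the same lines recur in each treatment.

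Transglutaminases are calcium-dependent enzymes that join glutamine to lysine side chains and so cross-link proteins. TGM1 is held at the membrane of keratinocytes and builds the cornified envelope of the skin, and its loss in people causes lamellar ichthyosis, a disorder of the skin barrier. TGM2, or tissue transglutaminase, is made in many cell types, also binds GTP, acts in the cytosol and in the extracellular matrix, and is a textbook target gene of the retinoic acid receptors. In the testis, RA starts the differentiation of spermatogonia and meiosis, and STRA8, a nuclear protein induced by RA, works with its partner MEIOSIN to switch on meiotic genes.

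Values are log2 levels scaled between libraries by the authors, in which low genes are drawn towards their own mean, so that changes of low genes are understated. Depth per library is not kept in these values and is unknown. Of the 42 libraries, 3 that were given DMSO for 4 h, labelled KO20, WT23 and WT25, were left out of the means and of the model. The library labelled KO20 DMSO 4 h lay closest to KO20 treated with RA for 24 h: over 12593 genes the SD of their log2 difference was 0.0698, against 0.148 for the next closest library. The library labelled WT23 DMSO 4 h had Stra8 at 11.59 but lay closest to WT17 at 4 h of DMSO, with an SD of 0.1925. WT25 at 8 h of DMSO was almost as close to it, at 0.193. The library labelled WT25 DMSO 4 h had an SD of 0.515 from its closest neighbour. The authors' column headers also remark on the KO20 and WT25 libraries. DMSO at 4 h thus rests on KO12 and KO21 in KO and on WT17 alone in WT.

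Tgm1 (ENSMUSG00000022218.15) lies on the minus strand of chromosome 14, 55700009 to 55713492 in build GRCm38, with 3006 bp of merged exons, and no other gene of the table overlaps it. Tgm2 (ENSMUSG00000037820.15) lies on the minus strand of chromosome 2, 158116402 to 158146436, with 4608 bp of merged exons. The authors' mean scaled count, pooled over libraries with and without RA, was 36.1 per kb of exon for Tgm2 and 17.6 for Tgm1. As RA libraries with high Tgm2 are part of this mean, it does not rank the 2 transcripts within a group. On the opposite strand, Rprd1b, a regulator of RNA polymerase II, shares 370 bp of Tgm2's exons and the predicted gene Gm20412 shares 633 bp. Whether the read counting used strand is not stated in the labels or headers, and reads of these stretches may therefore be uncertain. The mean scaled count of Gm20412 was 0.072. Rprd1b stood at 10.30 in KO and 10.28 in WT at 24 h of RA, against 10.31 in KO and 10.28 in WT at 24 h of DMSO, and its part in the Tgm2 values was not tested.

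Of the members, Tgm1 was matched in the RefSeq promoter table of build GRCm38.p6, and the sequence before its start is shown so that motifs of RA receptors and of STRA8 can be looked for in it. It lies at chr14:55713503-55713742 on the minus strand, 250 to 11 bases before the start, in a stretch that holds no annotated exon. The capitals mark a match, on the opposite strand, to AGGTCA, the core motif of retinoic acid receptor sites.
Tgm1: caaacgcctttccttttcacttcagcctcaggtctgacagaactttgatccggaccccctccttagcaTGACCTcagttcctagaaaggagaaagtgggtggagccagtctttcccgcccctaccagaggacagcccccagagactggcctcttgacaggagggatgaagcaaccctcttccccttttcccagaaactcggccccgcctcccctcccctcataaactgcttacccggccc

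AGGTCA was searched on both strands of the 250 bases before each of 32851 annotated starts, and 4607 of these windows held it. Its direct repeat with 5 bases between, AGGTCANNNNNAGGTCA, contains it and was in 3 windows, 0.00913%, and not in the Tgm1 window. CNCCTCAG, a motif published for STRA8 and MEIOSIN, was in 6.42% of windows and not in the Tgm1 window. A second annotated start of Tgm1 had none of these motifs in its window. The Stra8 window on chromosome 6 held AGGTCA at 2 places, shown with 10 bases on each side, which start 194 and 38 bases before the start, at chr6:34920744-34920769 and chr6:34920900-34920925 on the plus strand. Both stretches lie in an annotated exon of Stra8, whose gene starts farther upstream in the authors' table.
Stra8, upstream place: tggggtgaaaAGGTCAtcttgctcct
Stra8, downstream place: ctggggtaccAGGTCAgttttttacc

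Tgm1 stood apart in WT cells at 24 h of RA. At that time it was at 5.59, 5.26 and 5.47 in the RA-treated lines KO12, KO20 and KO21, and at 6.92, 6.83 and 7.05 in the RA-treated lines WT17, WT23 and WT25. After 24 h of DMSO it was at 5.73, 5.24 and 5.62 in the same KO lines, and at 6.08, 5.49 and 5.63 in the same WT lines. The 3 RA-treated WT libraries were above all other libraries of the table, and the RA and DMSO libraries of KO overlapped. Relative to DMSO the change was -0.09 ± 0.16 in KO and 1.20 ± 0.16 in WT, which is 2.29-fold on this scale (SE of the model, n = 3 lines per group). The KO change minus the WT change was -1.28 ± 0.23.

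**Figure D1:**
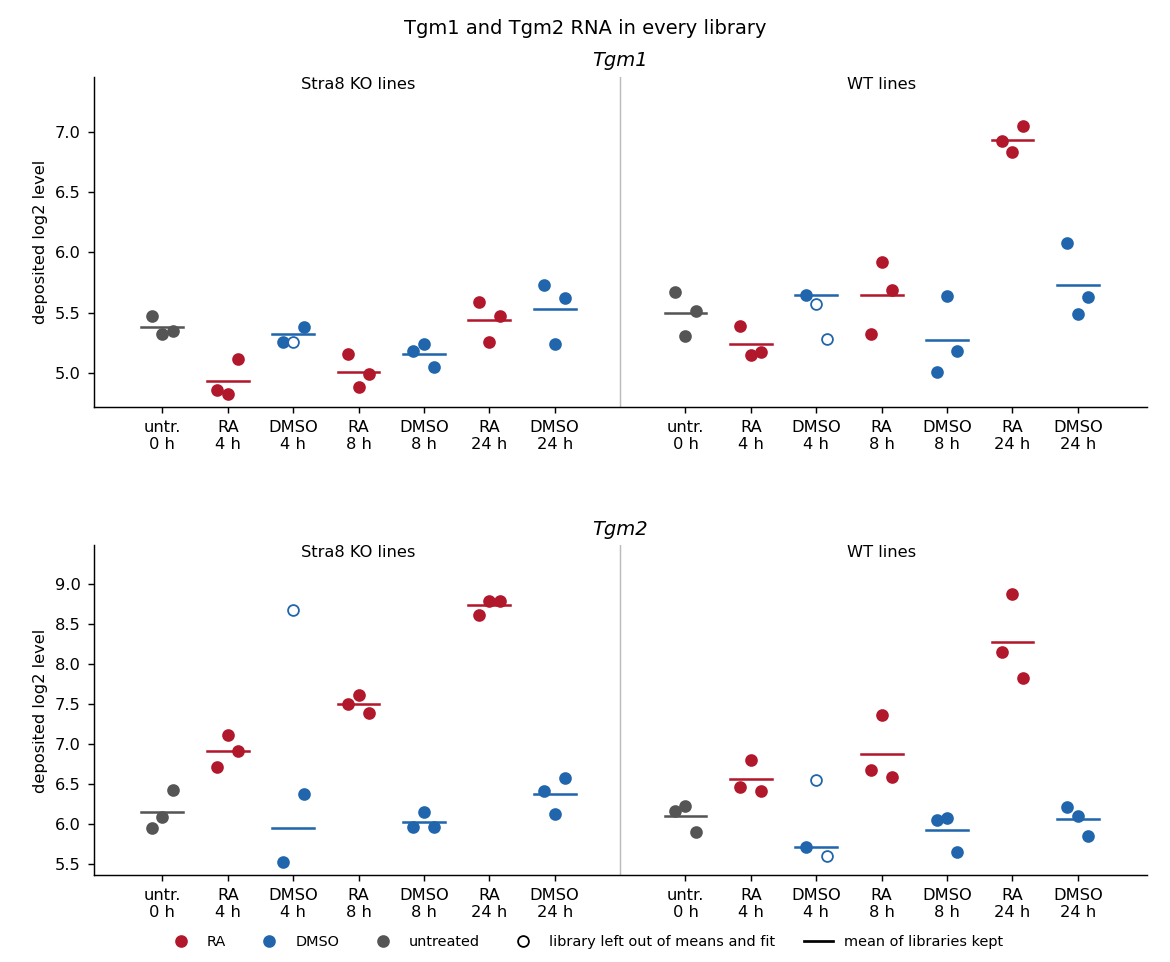
Deposited log2 level of Tgm1 (top) and Tgm2 (bottom) in all 42 libraries, with Stra8 KO lines to the left of WT lines and each time point marked by treatment. Each point is 1 library, open points are the 3 libraries left out, and lines are means of the libraries kept. Tgm1 is highest in WT at 24 h of RA (6.83 to 7.05), and Tgm2 is high at 24 h of RA in KO (8.61 to 8.79) and in WT (7.82 to 8.87).

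At 8 h of RA, Tgm1 was at 5.16, 4.88 and 4.99 in KO12, KO20 and KO21, and at 5.32, 5.92 and 5.69 in WT17, WT23 and WT25. After 8 h of DMSO it was at 5.18, 5.24 and 5.05 in these KO lines, and at 5.01, 5.64 and 5.18 in these WT lines. The RA and DMSO libraries overlapped within each genotype, while the RA libraries of KO lay below those of WT. Within a line, RA minus DMSO was -0.02, -0.37 and -0.06 in KO12, KO20 and KO21, and 0.32, 0.27 and 0.51 in WT17, WT23 and WT25. The group changes were -0.15 ± 0.16 in KO and 0.37 ± 0.16 in WT, and the KO change minus the WT change was -0.51 ± 0.23. Without WT17 at 8 h of DMSO the WT change was 0.23, and without KO20 at 8 h of RA the KO change was -0.08.

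At 4 h of RA, Tgm1 was below its untreated level in each line. It was at 4.86, 4.83 and 5.12 in KO12, KO20 and KO21 at 4 h of RA, against 5.47, 5.32 and 5.35 untreated. In WT17, WT23 and WT25 it was at 5.39, 5.15 and 5.17 at 4 h of RA, against 5.67, 5.31 and 5.51 untreated. The groups did not overlap in KO and overlapped in WT. The difference from untreated was -0.44 ± 0.16 in KO and -0.26 ± 0.16 in WT. Against the DMSO libraries kept at 4 h it was -0.38 ± 0.18 in KO and -0.42 ± 0.23 in WT, and with all 42 libraries it was -0.36 and -0.27. With DMSO alone the difference from untreated was -0.22 ± 0.16 at 8 h in both genotypes (95% interval -0.55 to 0.11). At 24 h of DMSO it was 0.15 ± 0.16 in KO (-0.18 to 0.48) and 0.23 ± 0.16 in WT (-0.1 to 0.56). Each of these intervals includes no change.

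In the order of its 12 group means without DMSO at 4 h, Tgm1 was highest in WT at 24 h of RA (6.93 ± 0.11, SD, n = 3), 1.20 above the next group, WT at 24 h of DMSO. From there down to the lowest group, KO at 4 h of RA (4.94 ± 0.16), each group overlapped with its neighbour in that order.

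Tgm2 was high under RA in both genotypes, and its groups under RA and DMSO did not overlap at 8 or 24 h. At 24 h of RA it was at 8.61, 8.79 and 8.79 in KO12, KO20 and KO21, and at 8.15, 8.87 and 7.82 in WT17, WT23 and WT25. After 24 h of DMSO it was at 6.41, 6.13 and 6.58 in these KO lines, and at 6.22, 6.11 and 5.86 in these WT lines. The change was 2.36 ± 0.22 in KO, 5.13-fold, and 2.22 ± 0.22 in WT, 4.65-fold. The KO change minus the WT change was 0.14 ± 0.31, smaller than its error.

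WT23 had the highest Tgm2 of the WT lines at each time of RA. At 8 h of RA, Tgm2 was at 7.50, 7.61 and 7.39 in KO12, KO20 and KO21, and at 6.68, 7.36 and 6.59 in WT17, WT23 and WT25. After 8 h of DMSO it was at 5.97, 6.16 and 5.97 in these KO lines, and at 6.06, 6.08 and 5.66 in these WT lines. All 3 KO lines were above all 3 WT lines at 8 h of RA, and the DMSO libraries of the genotypes overlapped. The change was 1.47 ± 0.22 in KO and 0.95 ± 0.22 in WT, and the KO change minus the WT change was 0.52 ± 0.31. Without WT23 at 8 h of RA the WT change was 0.71 and the difference 0.76, and without WT23 at 24 h of RA the WT change was 1.92 and the difference 0.44.

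Tgm2 was already above untreated at 4 h of RA, the time at which Tgm1 was below it. It was at 6.71, 7.12 and 6.91 in KO12, KO20 and KO21, and at 6.47, 6.80 and 6.42 in WT17, WT23 and WT25. Untreated libraries were at 5.95, 6.09 and 6.43 in these KO lines, and at 6.17, 6.23 and 5.90 in these WT lines. The groups did not overlap in either genotype, and the difference from untreated was 0.76 ± 0.22 in KO and 0.47 ± 0.22 in WT. Against DMSO at 4 h the choice of libraries decides the value. It was 0.96 ± 0.24 in KO and 0.84 ± 0.31 in WT with the libraries kept, and 0.05 ± 0.39 in KO and 0.60 ± 0.39 in WT with all 42.

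The library labelled KO20 DMSO 4 h had Tgm2 at 8.67, close to the 8.79 of KO20 at 24 h of RA, while KO12 and KO21 were at 5.53 and 6.38 after 4 h of DMSO. In WT at 4 h of DMSO, Tgm2 was at 6.55 in the library labelled WT23, at 5.61 in the one labelled WT25 and at 5.72 in WT17. Tgm1 was at 5.26 in the KO20 library, the same as in KO12 at 4 h of DMSO and in KO20 at 24 h of RA.

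In the order of group means, Tgm2 was highest in KO at 24 h of RA (8.73 ± 0.10) and next in WT at 24 h of RA (8.28 ± 0.54), and these groups overlapped. KO at 8 h of RA (7.50 ± 0.11) and KO at 4 h of RA (6.91 ± 0.20) followed, each with no overlap with the group above. WT at 8 h (6.88 ± 0.42) and 4 h of RA (6.56 ± 0.20) and all untreated and DMSO groups came after, each overlapping with its neighbour.

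**Figure D2:**
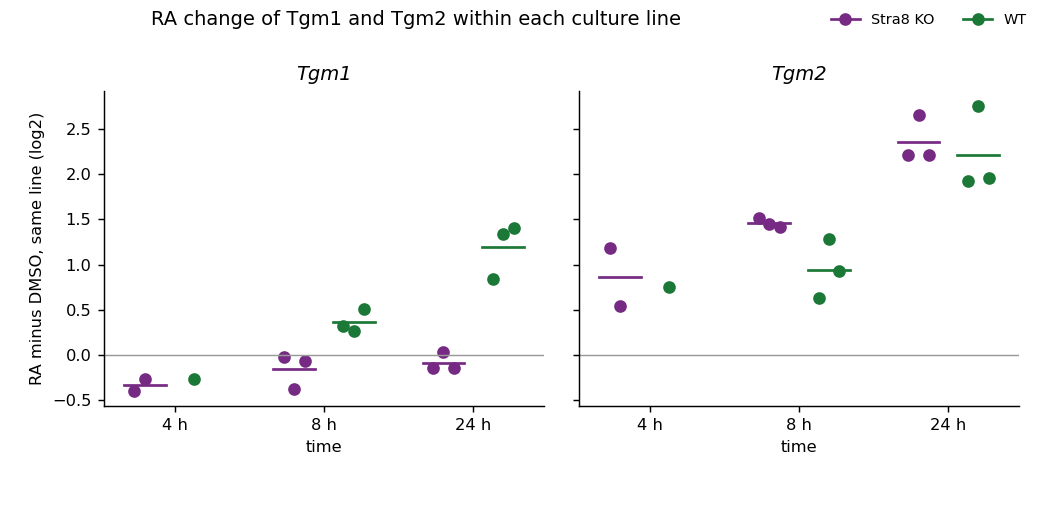
RA minus DMSO of the same culture line (log2) for Tgm1 (left) and Tgm2 (right) at 4, 8 and 24 h, with Stra8 KO to the left of WT at each time. Points are lines and bars their means, and lines with a DMSO library left out at 4 h are not drawn. At 24 h Tgm1 lies between -0.14 and 0.03 in KO and between 0.84 and 1.41 in WT, and Tgm2 lies between 2.21 and 2.66 in KO and between 1.93 and 2.76 in WT.

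Neither gene was called different between genotypes before treatment. The test compared untreated libraries only, but its filter and its estimate of the spread drew on all 39 libraries, those with RA included. In untreated cultures Tgm1 was 5.38 ± 0.08 in KO and 5.50 ± 0.18 in WT (SD, n = 3 lines each). The difference was -0.12 ± 0.16 (limma, adjusted p = 0.965 over 16268 genes, 95% interval -0.45 to 0.21). Tgm2 was 6.16 ± 0.25 in untreated KO and 6.10 ± 0.18 in untreated WT, with a difference of 0.06 ± 0.22 (limma, adjusted p = 0.991, interval -0.38 to 0.50). In this comparison 0.0123% of the genes passed, 2 genes, and 967 had an unadjusted p under 0.05. Stra8 passed, at 6.39 ± 0.09 in untreated KO and 8.06 ± 0.73 in untreated WT (limma, -1.67 ± 0.22, adjusted p = 0.000685), in the direction of the labels. With all 42 libraries its change was again -1.67 and this call was lost (limma, adjusted p = 0.9999).

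The Stra8 transcript was still measured in KO, at 9.65 ± 0.16 in KO and 14.50 ± 0.35 in WT at 24 h of RA (SD, n = 3 each), against 6.57 ± 0.19 in KO and 7.68 ± 0.19 in WT with DMSO. Its change was 3.08 ± 0.22 in KO and 6.83 ± 0.22 in WT.

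For the size of these changes among all genes, only 69 of 16268 genes had a higher change than Tgm1 in WT at 24 h, while 11260 had a higher change than Tgm1 in KO. For Tgm2 the counts were 21 genes in KO and 10 in WT. At 8 h, 55 genes had a higher change than Tgm2 in KO and 74 in WT, and 14489 and 493 had a higher change than Tgm1. In the difference between genotypes at 24 h, 4 genes lay below Tgm1, and Tgm2 was inside the bulk, with 11466 genes below it. The members were chosen on these measures. limma called 10.5% of genes higher and 8.10% lower in KO at 24 h, and 17.9% higher and 19.3% lower in WT. At 8 h it called 5.30% higher and 1.26% lower in KO, and 5.32% higher and 6.71% lower in WT. The test of the difference between genotypes called 0.455% at 8 h. At 24 h it called 11.8% with the higher response in KO and 7.99% with the lower response in KO, or 1740 and 1813 genes in place of 1917 and 1299 under quantile normalization. With culture line as a block the calls in either direction were 1836 in KO and 3326 in WT at 8 h and 4690 in KO at 24 h, and 485 and 5069 for the difference at 8 and 24 h.

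The authors' deposited table gives their own log2 fold changes, which at 24 h were farther from 0 than those above. In the authors' deposited table the change of Tgm1 under RA was -0.66, -0.25 and -0.17 in KO at 4, 8 and 24 h, and -0.56, 0.71 and 1.55 in WT. For Tgm2 the authors' deposited table has 0.89, 1.61 and 2.48 in KO, and 0.33, 1.15 and 2.47 in WT. Its interaction column runs as WT minus KO, since 999 of the 1000 largest differences had the opposite sign to the KO minus WT difference used here. There the authors' deposited table gives 0.13, 1.16 and 1.95 for Tgm1 and -0.98, -0.52 and 0.12 for Tgm2, with standard errors of 0.58, 0.56 and 0.40 and of 0.71, 0.47 and 0.44. For Tgm2 at 24 h this is the opposite direction to the 0.14 above, and both values were smaller than their errors. Per the header, 10 samples entered the authors' fit at 4 h and 12 the others.

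Of 7 other members of the transglutaminase family, Tgm3, Tgm4 and Tgm6 were tested, and limma called none of them in any of the 7 comparisons without a block. Tgm6, a transglutaminase of the nervous system, ranged from 5.0 to 6.15 over the libraries kept. Its change at 24 h was 0.22 ± 0.14 in KO and 0.19 ± 0.14 in WT (adjusted p = 0.306 and 0.293, limma). Tgm3, an epidermal and hair follicle enzyme, had changes of 0.09 ± 0.14 in KO and 0.03 ± 0.14 in WT at levels of 2.80 to 3.79. Tgm4, the prostate enzyme, had changes of 0.29 ± 0.12 in KO and 0.26 ± 0.12 in WT at levels of 2.82 to 3.47 (adjusted p = 0.0751 and 0.0815, limma), and with culture line as a block both were called (adjusted p = 0.0306 and 0.0408). Tgm5, Tgm7, F13a1, the catalytic subunit of clotting factor XIII, and Epb42, an erythrocyte membrane protein with no catalytic activity, stayed under the filter.

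The cornified envelope list holds proteins that TGM1 cross-links and ichthyosis genes of the same layer, and 11 of its 20 genes were tested. RA raised 1 of the 11 in KO at 24 h, against 10.5% of all genes, and raised 3 and lowered 2 in WT, against 17.9% and 19.3% of all genes, at a median log2 change of 0.09 in KO and 0.10 in WT, against -0.01 and 0.00 over all genes. At 8 h 1 rose in KO, against 5.30% of all genes, and 1 fell in WT, against 6.71%. With culture line as a block 2 rose in KO at 8 h, against 1267 of all 16268 genes. In WT 2 rose and 3 fell with the block, against 1507 and 1819. For the difference between genotypes at 24 h 1 was called in each direction, against 11.8% higher and 7.99% lower in KO over all genes. With the block 2 were called in each, against 2848 and 2221 of all 16268 genes. Evpl encodes the envelope precursor envoplakin. Its change was -0.05 ± 0.14 in KO and 0.95 ± 0.14 in WT (limma, adjusted p = 0.866 and 2.8e-06), and the KO change minus the WT change was -0.99 ± 0.20 (adjusted p = 0.00049). Ppl, which encodes its partner periplakin, rose in both genotypes, by 1.85 ± 0.18 in KO and 1.39 ± 0.18 in WT (limma, adjusted p = 1.8e-09 and 3.2e-07).

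The lipoxygenase genes of the list, whose enzymes make barrier lipids, moved in opposite directions in WT. Alox12b rose by 0.94 ± 0.21 in WT (limma, adjusted p = 0.000862), with a change of 0.36 ± 0.21 in KO, and its difference between genotypes of -0.57 ± 0.30 (adjusted p = 0.189) was called with the block (adjusted p = 0.0445). Aloxe3 fell by 0.66 ± 0.16 in WT (adjusted p = 0.00178, limma), with a change of 0.05 ± 0.16 in KO. The KO change minus the WT change of Aloxe3 was 0.71 ± 0.23 (adjusted p = 0.0272), a call that was lost without any 1 of 4 libraries (KO12 or KO21 at 24 h of DMSO, KO20 at 24 h of RA, or WT23 at 24 h of DMSO), with adjusted p = 0.0577 to 0.115. It was also lost with all 42 libraries and without the filter (limma, adjusted p = 0.0648 and 0.0863). The 9 genes of the list that stayed under the filter include Lor, Flg, Krt1 and the Sprr genes, which encode abundant envelope proteins of skin.

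Of 8 markers of keratinocytes, the epidermal cells in which TGM1 is best known, Krt5, Krt14, Krt1 and Dsg3 were under the filter. The log2 of the summed level of all 8 at 24 h of RA was 7.45 to 7.54 in KO and 7.43 to 7.58 in WT, against 7.44 to 7.67 in KO and 7.46 to 7.65 in WT with DMSO, and the groups overlapped.

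The list of TGM2 partners and substrates at the cell surface and in the matrix has 17 names, of which 16 were found and tested, since Gpr56 is the older name of Adgrg1. RA changed 0 of the 16 in KO at 24 h, against 10.5% of all genes higher and 8.10% lower. With culture line as a block 3 rose and 1 fell, against 2391 and 2299 of all 16268 genes. In WT at 24 h 2 rose and 3 fell, against 17.9% and 19.3% of all genes, at a median of -0.05 in KO and 0.07 in WT, against -0.01 and 0.00 over all genes. Adgrg1, an adhesion G protein-coupled receptor that binds TGM2, fell by 1.38 ± 0.15 in WT, with a change of 0.08 ± 0.15 in KO (limma, adjusted p = 3.7e-08 and 0.766). Sdc4, a heparan sulphate proteoglycan, fell by 1.15 ± 0.12 in WT, with a change of -0.28 ± 0.12 in KO (limma, adjusted p = 9e-09 and 0.0989). With the block the change of Sdc4 in KO was called (limma, adjusted p = 0.00626).

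The difference between genotypes was called for 5 of the 16 genes, 3 with the higher change in KO and 2 with the lower one, against 11.8% and 7.99% of all genes, at a median of -0.16. The KO change minus the WT change was 1.46 ± 0.21 for Adgrg1 (limma, adjusted p = 1.6e-05) and 0.88 ± 0.16 for Sdc4 (adjusted p = 0.00033). Igfbp3, which encodes a binding protein of insulin-like growth factors, had a change of 0.11 ± 0.11 in KO and rose by 0.58 ± 0.11 in WT, and Itgb3, which encodes integrin beta 3, had -0.04 ± 0.10 in KO and rose by 0.40 ± 0.10 in WT. Lrp1, which encodes an endocytic receptor, had 0.37 ± 0.16 in KO and -0.28 ± 0.16 in WT, neither past the threshold (limma, adjusted p = 0.109 and 0.174) and both past it with the block (adjusted p = 0.0171 and 0.0486). The difference between genotypes was -0.48 ± 0.16 for Igfbp3, -0.44 ± 0.14 for Itgb3 and 0.65 ± 0.22 for Lrp1 (limma, adjusted p = 0.0346, 0.0227 and 0.0407). With all 42 libraries these adjusted p were 0.0585, 0.0716 and 0.185 (limma), so the 3 calls were lost. Without the filter they were lost too (limma, adjusted p = 0.102, 0.087 and 0.118). Under quantile normalization Lrp1 was lost (limma, adjusted p = 0.0713), and 2 genes of the list were called higher and 3 lower in KO, against 1740 and 1813 of all genes. Leaving out 1 library also lost the calls of Igfbp3 and Lrp1, for 8 of the 12 libraries each. That of Itgb3 was lost without KO12 at 24 h of DMSO or KO20 at 24 h of RA.

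The cultures hold feeder cells and may hold other cells of the testis, and in such bulk libraries fewer cells of a type and less RNA per cell cannot be told apart. At 24 h, 10 fibroblast markers had a log2 summed level of 14.17 to 14.46 in KO and 14.01 to 14.89 in WT with RA. With DMSO the sums were 14.70 to 15.30 in KO and 14.28 to 15.10 in WT. The sum was lower with RA in KO, and the groups overlapped in WT. Of 9 tested fibroblast markers, limma called 1 lower in KO and 0 higher, against 8.10% and 10.5% of all genes. That was Col1a1 at -0.54. Vim, Col3a1, Fbln2 and Col1a2 had -0.84, -0.77, -0.70 and -0.58 in KO. Postn, Dcn and Acta2 had -0.21, -0.19 and -0.16, and Pdgfrb had 0.49. Macrophage markers summed to 8.38 to 10.67 in KO and 7.57 to 7.84 in WT with RA. With DMSO these sums were 8.61 to 10.90 in KO and 8.61 to 9.02 in WT, with Cd163, Csf1r and Adgre1 under the filter. The tested macrophage markers differed among themselves. At 24 h Mrc1 changed by -0.61 in KO and -1.85 in WT, Ptprc by -0.53 and -1.16, and Cd68 by -0.11 and -0.61. Cd14 changed by 0.16 and 0.13, and Lyz2 by -0.44 and 0.05, each with an SE of 2.23 for Lyz2. Endothelial markers summed to 9.25 to 9.47 in KO and 8.22 to 8.30 in WT with RA, against 8.62 to 8.92 in KO and 8.67 to 8.92 in WT with DMSO, with Emcn, Tie1 and Esam under the filter. The endothelial sum was higher with RA in KO and lower with RA in WT, but its tested markers did not move together. At 24 h Pecam1 changed by 1.30 in KO and -0.67 in WT, and Vwf by 0.67 and -0.52. Cdh5 changed by 0.0 in KO and -0.02 in WT, Kdr by -0.24 and -0.27, and Tek by -0.07 and -0.73. The part of these cells in the values of Tgm2 and of the lists was not tested. Sertoli cell markers summed to 8.49 to 8.87 in KO and 8.56 to 9.20 in WT with RA, against 8.66 to 8.87 in KO and 8.62 to 9.14 in WT with DMSO. All 8 germ cell markers were above the filter. They summed to 16.45 to 16.46 in KO and 16.12 to 16.24 in WT with RA. With DMSO the sums were 16.36 to 16.43 in KO and 16.35 to 16.46 in WT. At 24 h limma called 3 higher and 1 lower in KO, against 10.5% and 8.10% of all genes. In WT it called 1 higher and 4 lower, against 17.9% and 19.3%. Zbtb16 changed by -0.30 in KO and -1.17 in WT, Etv5 by -0.07 and -1.16, and Gfra1 by 0.32 and -0.79. Sall4 changed by 1.07 and 0.39, Utf1 by 1.34 and -0.05, and Lin28a by 0.14 and -0.37. Dazl and Ddx4, the highest by level, changed by -0.06 and -0.08 in KO and -0.0 and -0.01 in WT.

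The list of RA response and handling holds receptors, binding proteins, enzymes and target genes of RA. Of 23 listed, 22 were tested, and 11 rose and 3 fell in KO at 24 h, against 10.5% and 8.10% of all genes. In WT 8 rose and 3 fell, against 17.9% and 19.3%. The medians were 0.41 in KO and 0.19 in WT, against -0.01 and 0.00 over all genes. At 8 h 10 rose and 0 fell in KO, against 5.30% and 1.26% of all genes. In WT 6 rose and 2 fell at 8 h, against 5.32% and 6.71%. Cyp26a1, whose enzyme breaks down RA, rose by 3.57 ± 0.17 in KO and 3.25 ± 0.17 in WT, and Rarb, an RA receptor gene, rose by 3.23 ± 0.18 in KO and 2.91 ± 0.18 in WT (limma, adjusted p at most 1.3e-13). Cyp26b1, a related RA-degrading enzyme, rose by 2.27 ± 0.23 in KO and 2.55 ± 0.23 in WT, and Stra6, the retinol uptake receptor, by 2.24 ± 0.23 in KO and 2.18 ± 0.23 in WT (limma, adjusted p at most 1.1e-08). The difference between genotypes was not called for these 4 genes, at 0.32 ± 0.24, 0.32 ± 0.26, -0.28 ± 0.32 and 0.06 ± 0.33 (limma, adjusted p = 0.376, 0.415, 0.581 and 0.925).

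The difference was called for 6 of the 22 genes, 5 with the higher change in KO and 1 with the lower one, against 11.8% and 7.99% of all genes. Hoxb1, a homeobox gene, rose by 1.44 ± 0.18 in KO and had 0.25 ± 0.18 in WT, and Dhrs3, which encodes a retinaldehyde reductase, rose by 0.90 ± 0.13 in KO and had 0.07 ± 0.13 in WT. Rxrg, which encodes a retinoid X receptor, had 0.12 ± 0.26 in KO and fell by 1.02 ± 0.26 in WT. Nrip1, which encodes a corepressor of nuclear receptors, rose by 0.66 ± 0.15 in KO and by 1.45 ± 0.15 in WT, the direction of Tgm1. The KO change minus the WT change was 1.19 ± 0.26 for Hoxb1, 0.83 ± 0.18 for Dhrs3, 1.14 ± 0.37 for Rxrg and -0.79 ± 0.21 for Nrip1 (limma, adjusted p = 0.00117, 0.00115, 0.0286 and 0.00885). With all 42 libraries 2 of the 6 calls of the list were left, and Rxrg and Nrip1 were lost (limma, adjusted p = 0.0504 and 0.0653). Rxrg was also lost without any 1 of 5 libraries, with adjusted p = 0.0685 to 0.0847 (limma), and without the filter (limma, adjusted p = 0.1035).

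**Figure D3:**
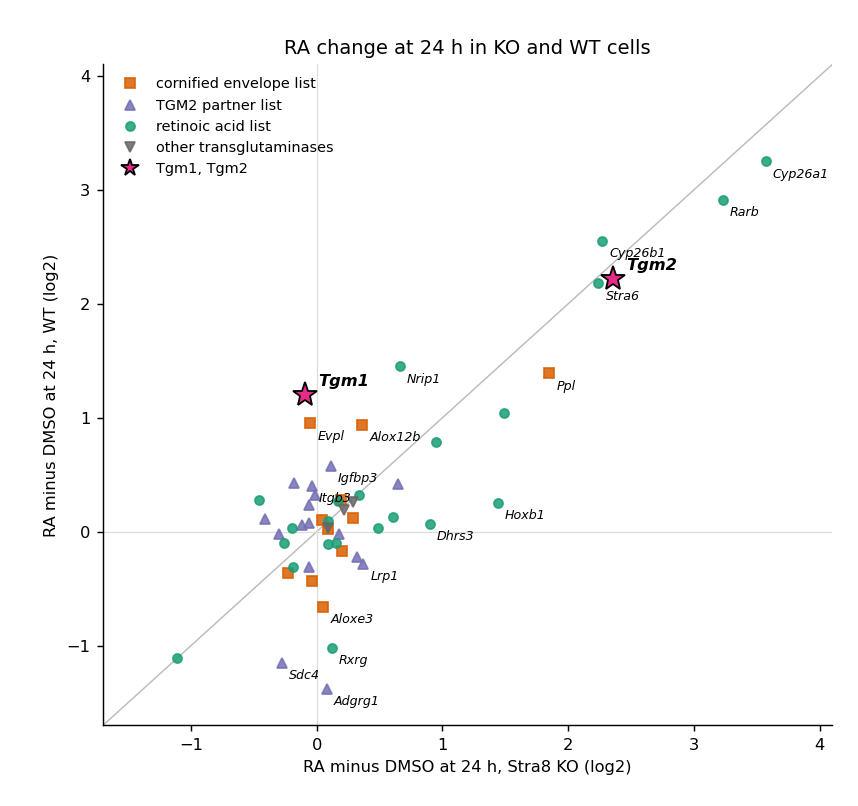
Log2 change under RA against DMSO at 24 h in Stra8 KO (x axis) and in WT (y axis) for Tgm1, Tgm2 and the genes of the lists, with 1 point per gene and the diagonal marking equal change. Tgm2 (2.36 in KO, 2.22 in WT) and Cyp26a1 (3.57 in KO, 3.25 in WT) lie near the diagonal, and Tgm1 (-0.09 in KO, 1.20 in WT) and Evpl (-0.05 in KO, 0.95 in WT) lie above it.

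The genes with the pattern most like each member were taken by Pearson correlation over 12 group means, among 12147 genes. For Tgm1 they were Arhgap12 (r = 0.986), Rfx2 (0.978), a transcription factor of spermatids and cilia, Tjp3 (0.977), a tight junction protein, Lnpep (0.977), an aminopeptidase, and Phka2 (0.974), a subunit of phosphorylase kinase. Their changes at 24 h were -0.21 to 0.03 in KO and 0.24 to 0.60 in WT. For Tgm2 they were Dhdh (0.977), a dihydrodiol dehydrogenase, Ppl (0.976), Ackr3 (0.974), a chemokine receptor, Zdhhc2 (0.974), a palmitoyltransferase, and Ankra2 (0.973), an ankyrin repeat protein. Their changes were 0.59 to 2.00 in KO and 0.55 to 1.52 in WT. Tgm1 and Tgm2 correlated with each other at 0.384 over the same 12 groups, which share libraries and scaling. The sets depend on the measure: over 39 libraries or by Spearman, 1 of the 5 genes was shared for Tgm1, and 0 and 1 for Tgm2.

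**Figure D4:**
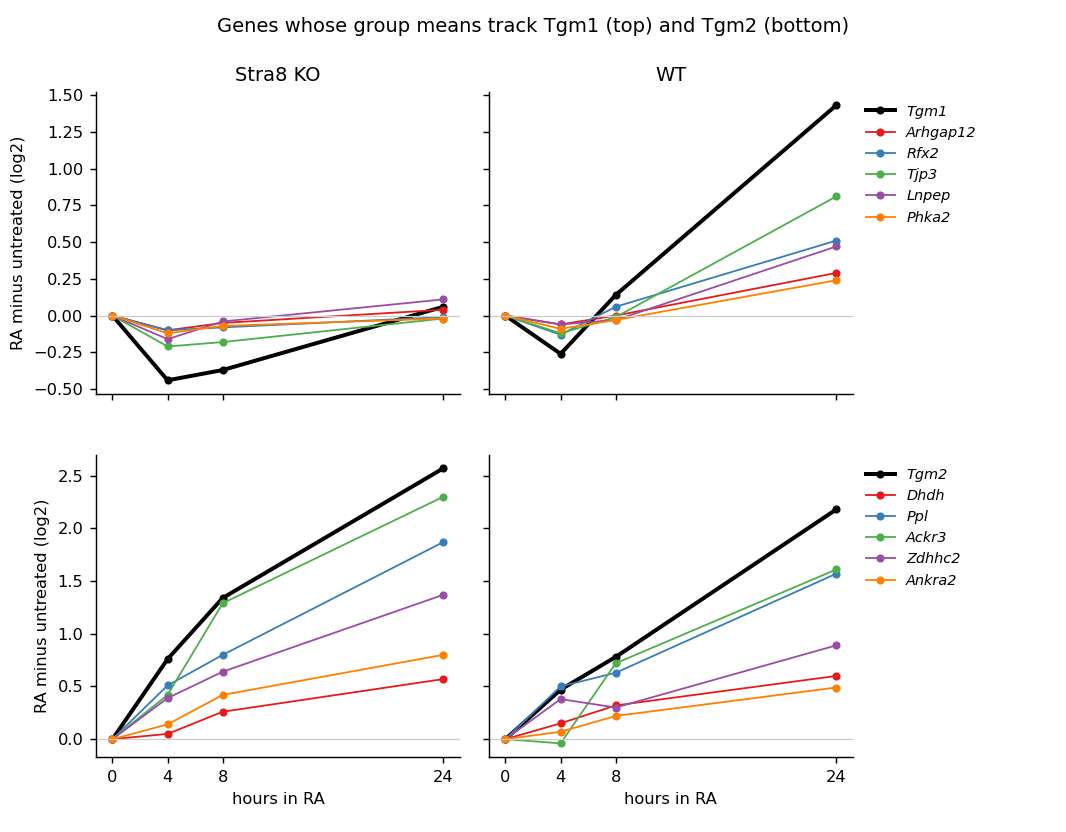
Mean log2 level under RA minus untreated at 4, 8 and 24 h in Stra8 KO (left) and WT (right) for Tgm1 and its 5 most like genes and for Tgm2 and its 5. The Tgm1 genes separate from 0 in WT at 24 h, and the Tgm2 genes are above 0 at 24 h in both genotypes.

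Of the 5 genes most like Tgm1, Arhgap12 had no window matched and 3 had a window with one of the motifs. These motifs are shown in capitals with 10 bases on each side. Over all genes, AGGTCA was in 4607 of 32851 windows and CNCCTCAG in 6.42% of them. Whether the motifs are more frequent in the genes most like Tgm1 was not tested. The Rfx2 and Lnpep windows hold CNCCTCAG, at chr17:56831065-56831092 and chr17:17624600-17624627, and the Tjp3 window holds AGGTCA at chr10:81291773-81291798. All are printed on the minus strand, on which Rfx2 has its motif as the reverse complement. The Lnpep stretch lies in an annotated exon of Lnpep. A second Tjp3 window and the windows of Phka2, Ackr3 and Ankra2 held none of the motifs, and Tgm2, Arhgap12, Dhdh, Ppl and Zdhhc2 had no window matched.
Rfx2: cagcgcgaggCTGAGGCGggcgggcgcc
Lnpep: ttagcgtccaCGCCTCAGtgggtctttt
Tjp3: ggaaggaactAGGTCAggagtgctcg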

How the data were processed

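RNA was sequenced from 42 libraries (a stranded mRNA kit, RNA integrity number of at least 9.2, per the labels' protocols). The deposited log2 values were scaled between libraries by the authors. STAR 2.5.1b, DESeq and GRCm38.p4 are named in the submitters' processing notes without a role. How reads were counted, and whether by strand, is not given in the sources used here. The authors' deposited log2 fold changes and standard errors are kept as a score per gene, and the authors' mean scaled count is a signal per gene. The authors' p-value columns were not used.

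A mean for each of 14 groups was fitted over 39 libraries with limma 3.58.1 (R 4.3.3, data.table version 1.17.8; empirical Bayes with a mean trend, robust), for the 16268 genes at or above 10 on the scaled scale (3.32 in log2) in at least 3 libraries. Benjamini-Hochberg adjusted p under 0.05 was called. The interaction is the RA change in KO minus that in WT. Other alternatives were all 42 libraries, culture line as a block, quantile normalization, no filter, a filter at 50 and each library left out. The labels give the same 3 lines in each treatment, which pairs the libraries by line: deviations from the group means correlated at 0.292 to 0.724 within a line, except at -0.0034 for WT23 at 24 h. The fit was tried on simulated data with independent noise and no effect of culture line, which cannot check how the pairing by line bears on the calls. The labels list 43 samples for 42 columns, 2 of them for WT17 at 24 h of RA.

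The members and lists were chosen with earlier results of these data known. Named genes are the members, Stra8, the tested transglutaminases, up to 4 genes per list with the largest change among those called in WT at 24 h and up to 4 in the interaction, and the 5 genes most like each member. Depth is unknown, and no interval that needs it is given. Sequences come from RefSeq, build GRCm38.p6, which had windows for 8 of 13 genes looked up.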

Additional observations from a re-analysis of the deposited data

Results flagged for a closer look

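At 8 h of RA the change of Tgm1 was below 0 in all 3 KO lines and above 0 in all 3 WT lines. It was -0.02, -0.37 and -0.06 in KO12, KO20 and KO21, and 0.32, 0.27 and 0.51 in WT17, WT23 and WT25. The RA and DMSO libraries overlapped within each genotype. The KO change minus the WT change was -0.51 ± 0.23, and this difference was not tested. List genes were named partly for passing the threshold in the difference between genotypes at 24 h, so their count follows from that choice. In limma 11.8% of all genes passed there with the higher change in KO and 7.99% with the lower one. Of the named list genes 11 passed. With the higher change in KO these were Adgrg1 at 1.46, Hoxb1 at 1.19, Rxrg at 1.14, Sdc4 at 0.88, Dhrs3 at 0.83, Aloxe3 at 0.71 and Lrp1 at 0.65. With the lower change in KO they were Evpl at -0.99, Nrip1 at -0.79, Igfbp3 at -0.48 and Itgb3 at -0.44. Leaving out 1 of 12 libraries lost the call of Aloxe3 for 4 of them, Igfbp3 for 8, Itgb3 for 2, Lrp1 for 8 and Rxrg for 5. With all 42 libraries the calls of these genes and of Nrip1 were lost. Without the filter those of Aloxe3, Igfbp3, Itgb3, Lrp1 and Rxrg were lost, and that of Lrp1 also under quantile normalization.

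In libraries left out of the comparisons, Tgm2 was at 8.67 in the one labelled KO20 DMSO 4 h, above the highest untreated KO library at 6.43, and at 6.55 in the one labelled WT23 DMSO 4 h, above the highest untreated WT library at 6.23.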

How the results depend on the processing

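Over the alternatives, 89 values were recomputed for Tgm1 and 89 for Tgm2. Tgm1 in WT at 24 h lay between 1.07 and 1.37 when 1 library was left out, and its KO change minus WT change between -1.46 and -1.16. Values near 0 changed sign when 1 library was left out: Tgm1 in KO at 24 h was 0.01 without KO12 DMSO, Tgm2 in untreated cultures was -0.08 without KO21 and -0.04 without WT25, and the Tgm2 difference between genotypes at 24 h was -0.09 without WT25 RA. None of the other values of the members changed sign. The counts of called genes did move. The 3 libraries added in the fit of all 42 are in none of the groups behind these counts. They left the log2 changes as they were and touched only the filter and the estimate of the spread. Why the counts moved under the other alternatives was not tested. With all 42 libraries the counts were 0 in untreated cultures, 523 and 834 at 8 h in KO and WT, and 1440 and 3949 at 24 h in KO and WT. For the difference between genotypes at 8 and 24 h they were 1 and 1377. With culture line as a replicate block (correlation 0.305) they were 5 untreated, 1836 and 3326 at 8 h in KO and WT, 4690 at 24 h in KO, and 485 and 5069 for the difference at 8 and 24 h. Under quantile normalization the difference at 8 h had 46 calls. Without the filter it had 20, and untreated cultures had 4. Leaving out 1 library gave 1 to 3 calls in untreated cultures, 1192 to 1875 in WT at 8 h, and 24 to 110 for the difference at 8 h, the lowest without WT23 at 8 h of RA and the highest without KO20 at 8 h of DMSO. Of 657 values of named list genes, recomputed by a choice made after seeing the data, 39 lost their call, 6 gained one and 0 reversed. Calls of named genes that the block changed are given with those genes.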
